A study of Homo sapiens with 12 samples.

Results

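Long intergenic noncoding RNAs are transcripts that code for no known protein and come from their own transcription units between coding genes. Many are spliced and polyadenylated like messenger RNAs, many stay in the nucleus, and a number are known to act on the transcription of genes near the place where they are made, so the neighbouring coding gene is the usual first point of comparison. The symbol LINC followed by a number is the naming committee's placeholder for such a gene when nothing is known that would give it a name of its own. In blood cells, levels of these RNAs are known to be specific to lineage and stage.

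The members described here were the genes whose symbol is LINC followed by digits and that held at least 100 raw counts summed over the 12 libraries. This gave 144 genes, of 862 such genes with at least 1 count, 2270 such genes in the count tables and 60668 genes in all. Because the members were chosen by their summed counts, their levels are a description, and a weakly expressed member reached the minimum partly through the group in which it was highest. The members just inside the minimum were LINC00477 with 100 counts, LINC01215 with 101 and LINC01133 with 103 (LINC00499 also held 103), and the genes just outside it were LINC01954 with 94 counts and LINC01359 and LINC00663 with 95 each. Outside their highest group 32 members held under 100 counts, and that group was the combination for 20, DMSO for 6, MI-3454 for 5 and gilteritinib for 1. Of the members described below these are LINC02913, LINC02801, LINC01480, LINC03078, LINC01504, LINC02762, LINC02649, LINC00996, LINC03068, LINC00499, LINC01215 and LINC02593, whose differences are in part set by the choice of members. Test values printed for them are therefore descriptions and not support for a change. For LINC00499 and LINC02593 none is given. One tested set of genes was used throughout, and 143 members were in it, the exception being LINC00896.

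The cells were MOLM-13, an established line of acute monocytic leukaemia. The line has both the fusion gene MLL-AF9 and FLT3-ITD, a FLT3 with an internal tandem duplication, so every group shares that background. They were treated for 8 days with DMSO, the solvent control, with gilteritinib, an inhibitor of the FLT3 kinase, with MI-3454, which blocks the binding of menin to MLL1, or with both agents, called the combination below. Each group had 3 libraries, made from ribosome-depleted total RNA of cells seeded in triplicate, so the p-values measure the spread between these cultures of 1 line. The libraries held 6472940 to 12051457 counts in genes, the shallowest being combination replicate 3. The myeloid genes CD33, SPI1, CSF3R and MPO were expressed, and MS4A1 and HBB, which mark B cells and red cells, had 0 counts. PECAM1, known from endothelium and also from monocytes, was present at 175 ± 16.9 CPM in DMSO (SD, n = 3).

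The gene models of GENCODE release 29 on GRCh38 placed 143 of the 144 members. Of these, 104 were annotated there as lincRNA, 12 as antisense, 11 as processed transcripts and 8 as transcribed unprocessed pseudogenes, so the name LINC did not always mean intergenic. LINC03040 and LINC02693 were annotated as protein-coding in that release, although their present symbols are those of noncoding genes. The bodies of 19 members overlapped a coding gene, and 72 lay more than 10000 bp from the nearest coding gene. The median member had 4 exons and 2656 exon bases. How the deposited counting treated strand is not given in the sources used here, so the counts of the antisense and overlapping members are uncertain, and so are those of pseudogene-type members with near-identical copies.

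Levels below are in CPM, a gene's count divided by its library's total and rescaled, with library totals adjusted by TMM, the trimmed mean of M-values. The members were a small part of the RNA: together they took 0.115% of all counts in genes, and the median member had 328.5 counts over the 12 libraries. A mean of at least 20 CPM was reached by 11 members, at least 5 CPM by 51, and 48 were under 2 CPM. LINC00926 alone took 20.1% of all member counts. After it, the highest means over the 12 libraries were those of LINC00662 (53.8 CPM), LINC02987 (47.4), LINC00963 (42.2), LINC00623 (39.0), LINC02910 (27.4), LINC00667 (26.1) and LINC00342 (25.1). Per kilobase of exon the order was LINC00926 at 64.7 CPM per kb, LINC00623 at 18.8, LINC02970 at 12, LINC02256 at 11.9, LINC02976 at 11, LINC00342 at 9.60, LINC02987 at 9.22 and LINC02910 at 8.24, against a median of 1.41 over the 143 members with an exon length.

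Of the members with a promoter window in the RefSeq table for GRCh38.p14, 4 are shown because they had the largest absolute log2 changes with the combination, 2 of them higher and 2 lower. Each window runs from 250 bases before to 50 bases after the RefSeq start site, 5′ to 3′ on the gene's own strand. They lie at chr4:138309461-138309760 on the plus strand (LINC00499), chr3:122886263-122886562 on the plus strand (LINC02035), chr1:919643-919942 on the minus strand (LINC02593) and chr6:44000335-44000634 on the plus strand (LINC03040). Capitals mark matches, on either strand, to one of 7 motifs listed further on.
LINC00499: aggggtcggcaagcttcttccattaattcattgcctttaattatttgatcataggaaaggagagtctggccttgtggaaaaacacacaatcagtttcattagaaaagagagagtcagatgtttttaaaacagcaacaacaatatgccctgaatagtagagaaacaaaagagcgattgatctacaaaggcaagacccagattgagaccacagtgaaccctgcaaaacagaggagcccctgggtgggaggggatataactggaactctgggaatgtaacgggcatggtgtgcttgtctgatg
LINC02035: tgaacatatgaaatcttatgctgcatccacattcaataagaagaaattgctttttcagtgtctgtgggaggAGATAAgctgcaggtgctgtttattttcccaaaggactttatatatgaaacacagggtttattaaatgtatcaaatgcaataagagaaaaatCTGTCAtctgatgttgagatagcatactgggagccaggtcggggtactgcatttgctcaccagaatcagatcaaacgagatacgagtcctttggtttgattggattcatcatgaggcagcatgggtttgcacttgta
LINC02593: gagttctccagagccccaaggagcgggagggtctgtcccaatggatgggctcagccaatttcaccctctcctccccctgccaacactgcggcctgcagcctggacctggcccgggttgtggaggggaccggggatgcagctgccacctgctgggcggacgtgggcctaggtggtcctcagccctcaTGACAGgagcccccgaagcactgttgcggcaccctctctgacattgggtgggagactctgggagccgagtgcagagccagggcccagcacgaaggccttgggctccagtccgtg
LINC03040: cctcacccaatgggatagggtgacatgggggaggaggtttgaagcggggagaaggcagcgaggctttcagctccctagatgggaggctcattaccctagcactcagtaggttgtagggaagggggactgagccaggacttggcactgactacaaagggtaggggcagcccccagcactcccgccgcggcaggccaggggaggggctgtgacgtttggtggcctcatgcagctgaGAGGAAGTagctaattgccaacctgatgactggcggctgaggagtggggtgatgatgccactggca
The RefSeq and GENCODE start sites were 0 bp apart for LINC00499, 5 bp for LINC03040, 428 bp for LINC02035 and 1324 bp for LINC02593, so for the last pair the window may not be the start used in these cells. The share of G and C was 43.3% in the window of LINC00499, 39.3% in that of LINC02035, 66.7% in that of LINC02593 and 60.7% in that of LINC03040. The share over the other windows was not computed, so these values only describe the 4 windows.

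With the combination, LINC genes were mostly higher than in DMSO. By edgeR's quasi-likelihood test over 13972 genes, with Benjamini-Hochberg adjusted p under 0.05 as the call, 77 of 143 members were higher and 18 lower, against 29.2% higher and 28.4% lower among all tested genes. Of the 32 members with under 100 counts outside their highest group, 20 were highest with the combination. The count of higher members may therefore be in part set by the choice of members, as may the counts against the single agents below. It was not repeated without those members. The median log2 change was 0.73 over the members and -0.00 over all tested genes. Long noncoding genes outside the members had a similar split: of 1513 that GENCODE lists and that were tested, 52.9% were higher and 9.45% lower with a median of 0.77, whereas of 11487 protein-coding genes 24.8% were higher and 32.0% lower. The split was similar among the 51 members of at least 5 CPM, where 30 were higher and 7 lower, and among the 71 tested members more than 10000 bp from a coding gene, where 39 were higher and 10 lower. Among the 19 that overlap a coding gene, 12 were higher and 0 lower.

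**Figure D1:**
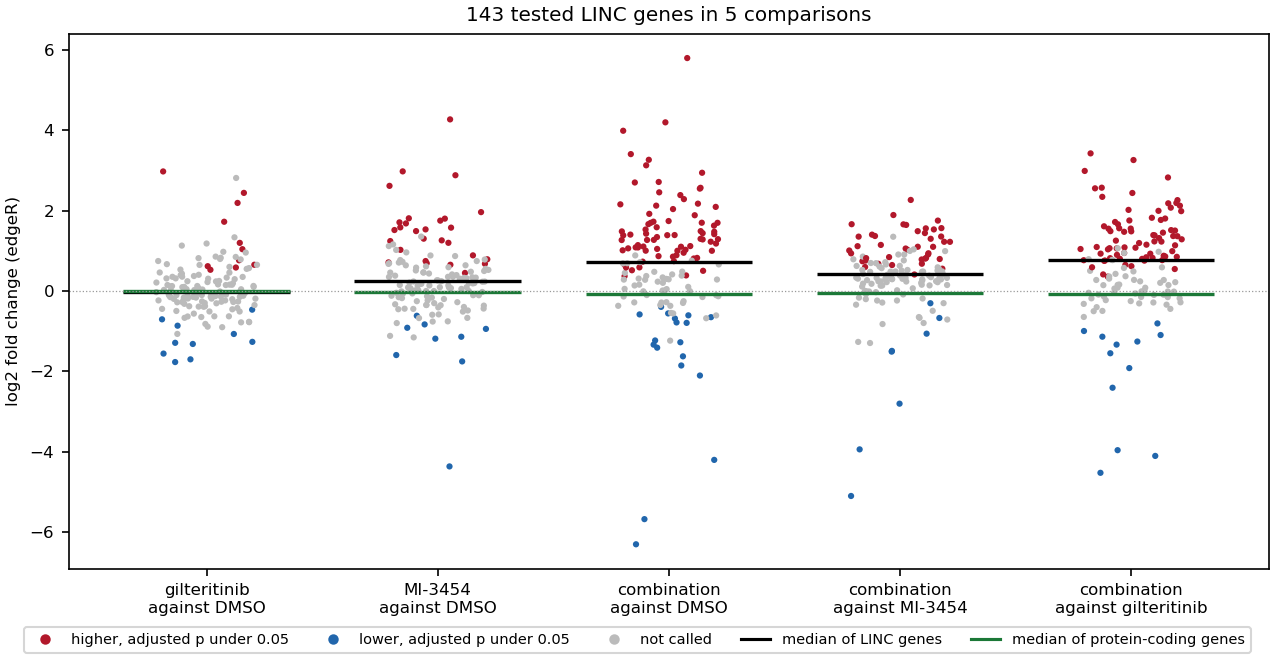
Each point is 1 of 143 tested LINC genes, with the edgeR log2 fold change on the y axis and the 5 comparisons on the x axis. Red and blue points were called higher or lower, the black bar is the median of the LINC genes and the green bar that of protein-coding genes: the black bar stands at 0.73 for the combination against DMSO and 0.77 for the combination against gilteritinib, above the green bar in both.

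MI-3454 alone gave 28 members higher and 9 lower (all tested genes: 10.1% and 8.95%), with a median log2 change of 0.24. Gilteritinib alone gave 11 higher and 10 lower (all tested genes: 6.92% and 8.18%), with a median of -0.01. In this last comparison the same-numbered libraries varied together weakly, and whether the numbers mark paired cultures is uncertain. In the fit that blocks on replicate number 20 members were higher and 16 lower. Without single libraries its total of 21 fell to 12 (without DMSO replicate 1), 12 (without gilteritinib replicate 1), 13 (without gilteritinib replicate 2) and 11 (without gilteritinib replicate 3).

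Set against the single agents, more members were called higher with the combination than lower: 42 were higher and 8 lower than with MI-3454 (all tested genes: 14.1% and 15.1%), and 76 were higher and 12 lower than with gilteritinib (30.1% and 30.3%, or 60.4% in either direction). Read across the 3 comparisons with DMSO, which share the DMSO libraries, 47 members were called higher with the combination alone, 19 with MI-3454 and the combination, 5 with gilteritinib and the combination, and 6 in all 3. Lower calls were made in all 3 for 5 members and with the combination alone for 8, and 41 members were called in none. Of all tested genes 29.2% were higher and 28.4% lower with the combination, 10.1% and 8.95% with MI-3454, and 6.92% and 8.18% with gilteritinib. These patterns, and the orders of means below, were not counted over all genes, so they are descriptions of the members. The mean was highest with the combination for 93 of 144 members, and in 83 it stepped up from DMSO to MI-3454 to the combination, whereas 18 stepped down in that order.

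Other features of the libraries moved with these counts. Summed over the 144 members, the level scaled to total counts was 917 ± 56.7 CPM in DMSO, 891 ± 50.3 with gilteritinib, 1195 ± 171 with MI-3454 and 1700 ± 186 with the combination (SD, n = 3 each). Without LINC00926 the sums were 824 ± 44.5, 750 ± 36.3, 914 ± 114 and 1247 ± 117 CPM. The share of reads that the counting assigned to no gene was 18.1 ± 2.03% in DMSO, 17.0 ± 1.24% with gilteritinib, 21.0 ± 4.13% with MI-3454 and 32.6 ± 4.02% with the combination. It is taken over reads assigned to a gene, to several or to none. Whether some of the unassigned reads lie in introns was not examined. The summed level of 381 olfactory receptor genes, which a leukaemia line is not known to use, was 2.28 ± 0.26, 2.02 ± 0.28, 4.24 ± 1.39 and 12.6 ± 1.63 CPM in the same order. The share of RN7SL1, a signal recognition particle RNA, was 3.16 ± 1.01% of gene counts in DMSO, 2.50 ± 0.34% with gilteritinib, 2.97 ± 1.38% with MI-3454 and 1.39 ± 0.25% with the combination, and reads that fit several genes made up 7.83 ± 1.52%, 8.49 ± 1.49%, 7.69 ± 2.26% and 5.09 ± 0.64%. MI-3454 replicate 2 was the highest library of its group in the members' sum, the reads assigned to no gene and the olfactory receptor genes, and combination replicate 3 of its own. Per kilobase of exon the olfactory receptor genes stood at 0.0132 CPM with the combination against a median of 1.73 CPM for the members, and 3 members (LINC02693, LINC01215 and LINC02593) were within 10 times of it. The part of these features in the members' changes was not tested.

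**Figure D2:**
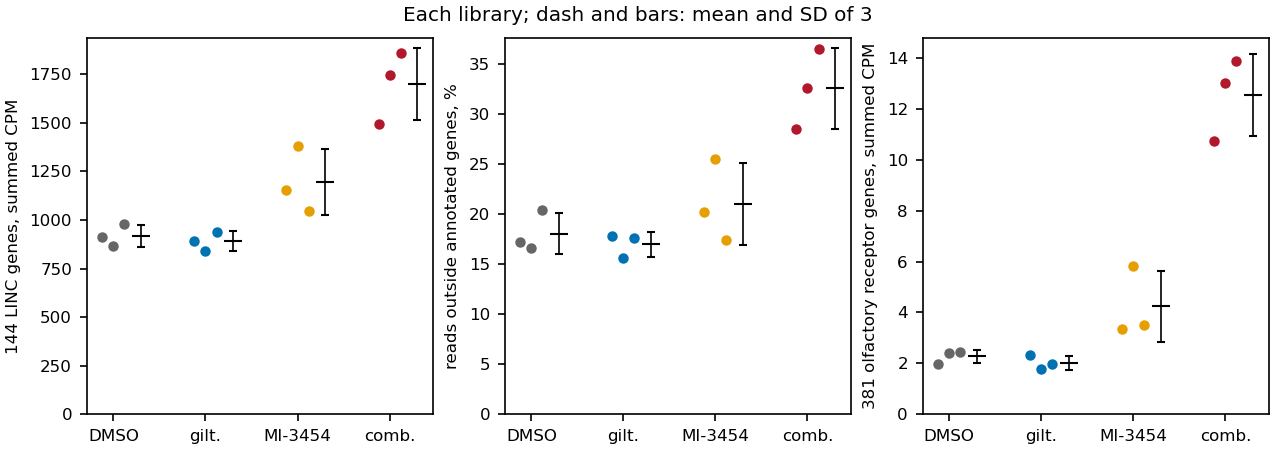
Values of the 12 libraries by group, with dash and bars for the mean and SD of 3: summed CPM of the 144 LINC genes (left), percent of reads assigned to no gene (middle, labelled as outside annotated genes) and summed CPM of 381 olfactory receptor genes (right). All 3 combination libraries stand above the other 9 in each panel, and MI-3454 replicate 2 is the next highest.

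LINC00926 was the most abundant member and rose with every treatment. The gene lies on chromosome 15 at 57300365 to 57307769, plus strand, with 3 exons, and it is best known from B cells. Its levels were 90.8, 88.4 and 105 CPM in DMSO, 145, 136 and 154 with gilteritinib, 269, 332 and 248 with MI-3454, and 365, 450 and 464 with the combination. No 2 groups overlapped. The log2 change from DMSO was 0.62 ± 0.10 with gilteritinib (SE, edgeR adjusted p = 0.0016), 1.58 ± 0.14 with MI-3454 (7.3e-06) and 2.17 ± 0.12 with the combination (2.2e-10), and the interaction term, the departure from the sum of the single agents on the log2 scale, was -0.03 ± 0.17 (0.94). Its nearest coding gene is TCF12, which encodes an E-protein transcription factor and ends 1084 bp away on the same strand. TCF12 went the other way: 134 ± 8.8 CPM in DMSO, 136 ± 7.9 with gilteritinib, 75.5 ± 0.89 with MI-3454 and 75.5 ± 3.3 with the combination, a log2 change of -0.83 ± 0.10 (adjusted p = 3.4e-06).

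The means of LINC02910 and LINC00869 followed the same order of groups. LINC02910, on chromosome 20 at 60055925 to 60072953, stood at 9.73, 10.6 and 12 CPM in DMSO, 14.2, 13.7 and 14.8 with gilteritinib, 35.4, 37.5 and 35.9 with MI-3454 and 43.2, 45.8 and 55.4 with the combination. It rose by 1.75 ± 0.14 with MI-3454 (SE, edgeR adjusted p = 3.3e-06) and 2.16 ± 0.14 with the combination (1.5e-09), while the change of 0.40 ± 0.14 with gilteritinib did not pass (0.072). LINC00869 is a transcribed pseudogene on chromosome 1 at 149606334 to 149679523, in a stretch rich in members of the multicopy NBPF family, so reads shared with copies make its level uncertain. Its 3 DMSO libraries held 8.19, 8.45 and 8.21 CPM, those with gilteritinib 10.0, 13.9 and 12.2, those with MI-3454 26.7, 26.8 and 27.8, and those with the combination 30.0, 30.2 and 31.8. The rise was 1.71 ± 0.14 with MI-3454 (3.8e-06) and 1.89 ± 0.13 with the combination (4.4e-09). Its nearest coding gene, NBPF19, went from 0.314 to 4.49 CPM between DMSO and the combination (log2 change 3.72 ± 0.42, adjusted p = 1.1e-06).

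**Figure D3:**
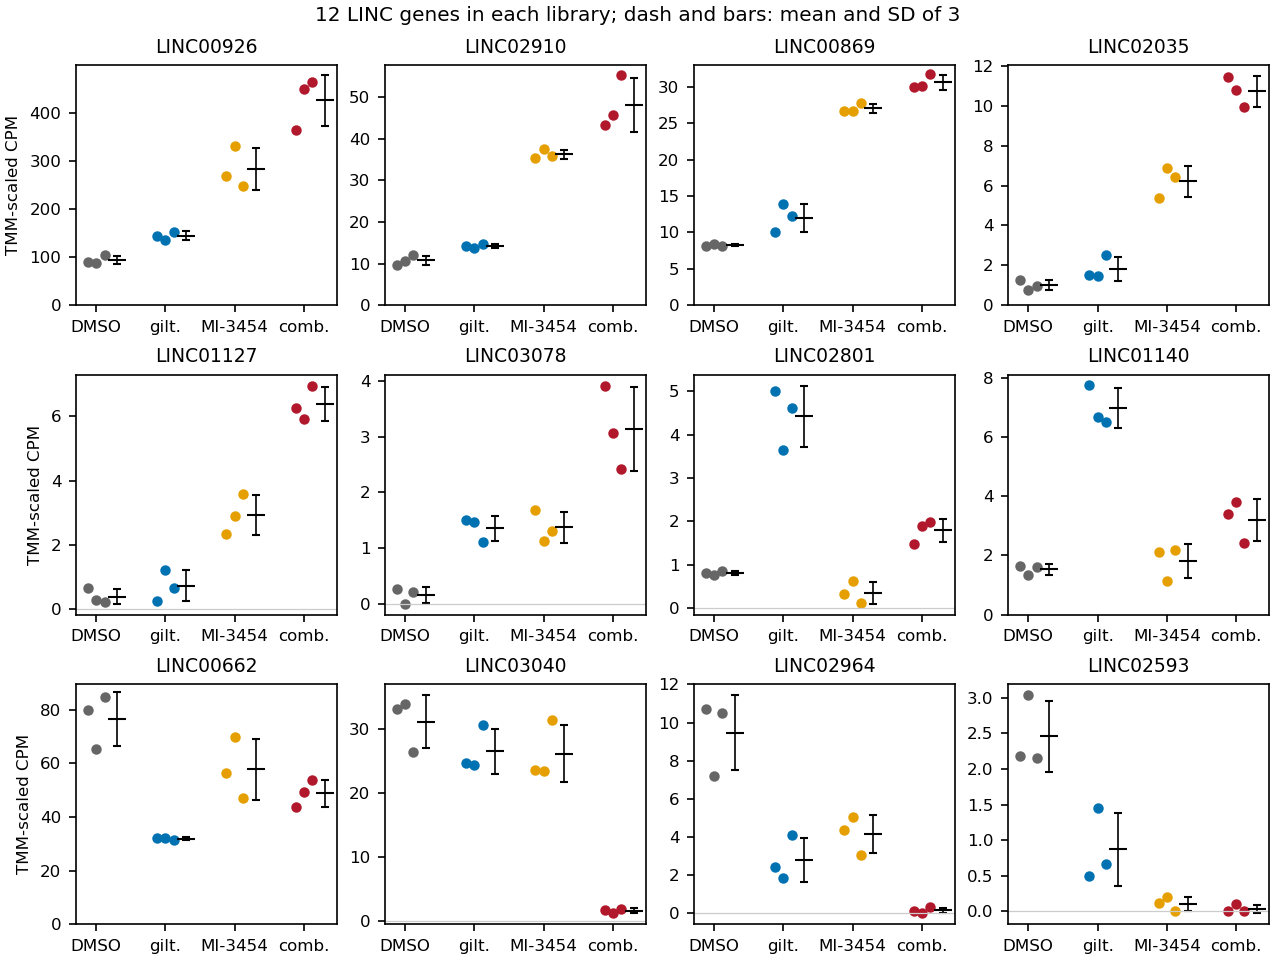
TMM-scaled CPM of 12 LINC genes in each of the 12 libraries, by group (gilt. is gilteritinib, comb. the combination), with dash and bars for the mean and SD of 3. LINC00926 climbs from about 94.6 to 427 CPM across the groups, LINC02801 and LINC01140 peak with gilteritinib, and LINC03040 and LINC02964 are lowest with the combination.

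The weakly expressed members LINC02035, LINC01127, LINC00499, LINC01451 and LINC03022 had larger rises. LINC02035 has 1 exon on chromosome 3 at 122886941 to 122892416 and starts 5802 bp after the end of SLC49A4, which encodes a membrane transporter, on the same strand. It stood at 1.27, 0.759 and 0.972 CPM in DMSO, 5.36, 6.90 and 6.41 with MI-3454 and 11.5, 10.8 and 9.95 with the combination. The gilteritinib libraries held 1.5, 1.46 and 2.53 CPM. The rise was 2.62 ± 0.28 with MI-3454 (SE, edgeR adjusted p = 3.5e-05) and 3.41 ± 0.25 with the combination (5.2e-09), and the 0.85 ± 0.36 with gilteritinib did not pass (0.14). SLC49A4 rose beside it, from 2.01 ± 0.47 CPM in DMSO to 4.09 ± 0.16 with gilteritinib, 7.70 ± 0.87 with MI-3454 and 12.1 ± 1.3 with the combination, and passed in all 3 comparisons (combination: 2.58 ± 0.22, adjusted p = 4.3e-08).

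LINC01127 lies 4677 bp before IL1R2, the decoy receptor of interleukin 1, on chromosome 2 at 101962056 to 101987167. Its levels were 0.637, 0.285 and 0.216 CPM in DMSO, 0.251, 1.22 and 0.661 with gilteritinib, 2.34, 2.88 and 3.59 with MI-3454, and 6.26, 5.93 and 6.96 with the combination. The DMSO and gilteritinib libraries overlapped, and the other groups stood apart: the log2 change was 2.88 ± 0.42 with MI-3454 (SE, edgeR adjusted p = 0.00046) and 3.99 ± 0.34 with the combination (4.7e-08). IL1R2 itself was too low to be tested, at no more than 0.213 CPM in any group's mean.

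LINC00499 was listed with 0, 0 and 0.108 CPM in DMSO, 0.585, 0.122 and 0.11 with gilteritinib, 0.782, 0.721 and 1.09 with MI-3454, and 2.09, 2.33 and 3.27 with the combination. The DMSO value rests on 1 count, so the ratio of the combination to DMSO was 75.9 with a 95% interval of 13.2 to 3040 from counting error alone. With MI-3454 the ratio was 26.5 (4.32 to 1090). Of its 103 counts, 34 lay outside the combination, so it reached the minimum through that group, and no test is given. LINC00499 lies 67362 bp from SLC7A11, the cystine transporter, in the opposite orientation. SLC7A11 had another pattern, falling with gilteritinib from 59.8 ± 15 to 16.9 ± 1.9 CPM (log2 change -1.82 ± 0.18, adjusted p = 3.2e-05) and standing at 78.9 ± 8.7 CPM with the combination (0.40 ± 0.15, 0.036).

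LINC01451 stood at 1.09, 1.42 and 0.540 CPM in DMSO and 9.13, 8.47 and 9.95 with the combination. Between them lay gilteritinib at 1.76 ± 0.37 and MI-3454 at 2.91 ± 1.2 CPM (SD, n = 3). The combination's rise of 3.13 ± 0.28 (SE, edgeR adjusted p = 6.0e-08) is set against a fall of -2.30 ± 0.60 (0.0038) in its nearest coding gene EGFL7, whose product is secreted by endothelium and whose transcript hosts a microRNA, though EGFL7 had only 1.08 CPM in DMSO. LINC03022, on chromosome 8, went from 0.886 ± 0.17 CPM in DMSO to 1.57 ± 0.21 with gilteritinib, 2.53 ± 0.65 with MI-3454 and 8.64 ± 1.8 with the combination. It rose by 1.52 ± 0.35 with MI-3454 (adjusted p = 0.0097) and 3.26 ± 0.28 with the combination (4.7e-08), and by 1.75 ± 0.25 from MI-3454 to the combination (0.00047).

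LINC03078 and LINC00324 rose with each agent alone. LINC03078 has 301 exon bases in all and stood at 0.273, 0 and 0.216 CPM in DMSO, 1.5, 1.46 and 1.10 with gilteritinib, 1.67, 1.13 and 1.30 with MI-3454, and 3.91, 3.07 and 2.42 with the combination. No treated library overlapped DMSO, whose 3 libraries held 5 counts. Of the 174 counts of LINC03078, 83 lay outside the combination, so its test values are descriptions. The log2 change was 2.97 ± 0.60 with gilteritinib (SE, edgeR adjusted p = 0.0056), 2.98 ± 0.62 with MI-3454 (0.0051) and 4.20 ± 0.52 with the combination (3.3e-06). Its neighbour at 22229 bp is CD177, a neutrophil surface protein, which was too low to be tested (0.098 CPM in DMSO and 0.599 CPM with gilteritinib). LINC00324 went from 0.273, 1.14 and 0.540 CPM in DMSO to 2.42, 2.07 and 1.98 with gilteritinib, 2.23, 2.27 and 2.39 with MI-3454, and 6.17, 5.08 and 3.69 with the combination. The log2 change was 1.72 ± 0.42 with gilteritinib (adjusted p = 0.016), 1.80 ± 0.43 with MI-3454 (0.012) and 2.94 ± 0.38 with the combination (5.5e-06). The MI-3454 call ended without DMSO replicate 1 (0.055), and the gilteritinib call without DMSO replicate 1 (0.067), DMSO replicate 3 (0.058) or gilteritinib replicate 1 (0.063). CTC1, a telomere maintenance gene 778 bp away, rose with the combination from 46.8 ± 5.1 to 71.1 ± 5.9 CPM (0.60 ± 0.12, 0.00031).

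Several further members were higher with the combination than in DMSO. LINC02649, 23043 bp from PFKFB3, a regulator of glycolysis, stood at 0.463 ± 0.18 CPM in DMSO and 3.13 ± 0.90 with the combination (log2 change 2.71 ± 0.41, SE, edgeR adjusted p = 3.1e-05), and PFKFB3 rose there by 0.57 ± 0.10 (0.00019). LINC02913 stood at 0.753 ± 0.54 and 4.77 ± 1.6 CPM (2.57 ± 0.41, 5.1e-05), with its distant neighbour IER5L higher by 1.24 ± 0.15 (3.3e-06). LINC00528, with 1 exon 2552 bp from the start of BID, which encodes a cell-death protein, went from 1.66 ± 0.13 to 5.66 ± 1.2 CPM (1.74 ± 0.26, 3.1e-05) while BID was lower by -0.46 ± 0.11 (0.0020). LINC02976, an antisense entry, held 12, 14.7 and 15.4 CPM in DMSO and 24.3, 24.0 and 22 with the combination (0.74 ± 0.14, 0.00027), and its neighbour CNPY3, a chaperone of Toll-like receptors 1077 bp away, rose by 0.66 ± 0.11 (5.7e-05). LINC01504 went from 0.589 ± 0.26 CPM in DMSO to 2.09 ± 0.69 with MI-3454 (1.81 ± 0.44, 0.013, lost without MI-3454 replicate 1 at 0.064) and 2.53 ± 0.46 with the combination (2.09 ± 0.39, 0.00025). Outside the combination LINC02649, LINC02913 and LINC01504 held 58, 87 and 92 counts, so their test values are descriptions and not support for a change. LINC00342 was at 16.9 ± 2.8 CPM in DMSO and 38.3 ± 5.2 with the combination (1.18 ± 0.15, 3.6e-06). MI-3454 alone gave 26.9 ± 7.8 CPM (0.68 ± 0.20, 0.037). The MI-3454 call ended in 5 of 14 alternatives, among them without MI-3454 replicate 2 (0.18), DMSO replicate 1 (0.14) or DMSO replicate 2 (0.064), and the combination did not pass against MI-3454 (0.053).

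LINC03040 fell with the combination and passed the test with neither agent alone. It lies on chromosome 6 at 44000580 to 44005958, plus strand, has 3 exons and is one of the pair that GENCODE 29 still lists as protein-coding. Its levels were 33.0, 33.9 and 26.4 CPM in DMSO, 24.7, 24.3 and 30.5 with gilteritinib, 23.6, 23.5 and 31.3 with MI-3454, and 1.83, 1.27 and 1.99 with the combination. The first 3 groups overlapped one another, and every combination library was far below them. The log2 change was -0.23 ± 0.14 with gilteritinib (SE, edgeR adjusted p = 0.28) and -0.25 ± 0.16 with MI-3454 (0.32), neither of which passed, but -4.20 ± 0.20 with the combination (2.9e-11). The interaction term was -3.71 ± 0.26 (3.0e-07). MRPL14, a mitochondrial ribosomal protein gene and the nearest coding gene at 107496 bp, was lower by -0.70 ± 0.12 (0.00012), a far smaller change.

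LINC02964, on chromosome 8, was lower with each agent and almost without counts with both. It stood at 10.7, 7.21 and 10.5 CPM in DMSO, 2.42, 1.82 and 4.07 with gilteritinib, 4.35, 5.05 and 3.04 with MI-3454, and 0.0869, 0 and 0.284 with the combination. All 3 treated groups lay below DMSO without overlap: the log2 change was -1.77 ± 0.27 with gilteritinib (SE, edgeR adjusted p = 0.00080) and -1.19 ± 0.24 with MI-3454 (0.0044). The combination held 3 counts against 291 in DMSO, so DMSO was 88.2 times higher with a 95% counting interval of 29.9 to 430 (edgeR adjusted p = 4.9e-09). The interaction term was -3.35 ± 0.76 (0.0083), and as it rests on those 3 counts its size is loose. The gene was not in the annotation used here, so no neighbour is given.

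LINC02593 was lower in all 3 treatments, as was SAMD11, whose start lies 2912 bp away on the other strand of chromosome 1 and which encodes a nuclear protein with a SAM domain. LINC02593 stood at 2.18, 3.04 and 2.16 CPM in DMSO, 0.502, 1.46 and 0.661 with gilteritinib, 0.112, 0.206 and 0 with MI-3454, and 0, 0.106 and 0 with the combination. Every treated library was below every DMSO library. With 76 counts in DMSO against 3 with MI-3454 and 1 with the combination, the ratios of DMSO to treated were 22.9 (95% counting interval 7.55 to 114) and 69.1 (12 to 2760). Only 28 of its 104 counts lay outside DMSO, so no test is given. SAMD11 went from 10.3 ± 1.7 CPM in DMSO to 3.11 ± 0.22 with gilteritinib, 0.613 ± 0.15 with MI-3454 and 0.235 ± 0.17 with the combination. Its log2 changes were -1.72 ± 0.19, -4.05 ± 0.29 and -5.50 ± 0.36 (SE, edgeR adjusted p = 8.1e-05, 1.1e-06 and 1.6e-09).

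LINC01480 fell in all 3 treatments. It has 1 exon on chromosome 19 at 41535183 to 41536904, and stood at 3.73, 4.46 and 3.13 CPM in DMSO, 1.25, 0.851 and 1.32 with gilteritinib, 1.34, 0.618 and 1.41 with MI-3454, and 1.13, 1.16 and 1.42 with the combination. The treated groups overlapped one another and none overlapped DMSO, with log2 changes of -1.70 ± 0.28, -1.75 ± 0.34 and -1.62 ± 0.30 (SE, edgeR adjusted p = 0.0016, 0.0031 and 0.00019). Of the 216 counts of LINC01480, 99 lay outside DMSO, so its test values, here and in the interaction, are descriptions and not support for a change. The interaction term was 1.83 ± 0.47 (0.016), and the combination stood 0.14 ± 0.40 above MI-3454 (0.82) and 0.08 ± 0.35 above gilteritinib (0.87), neither of which passed. CEACAM21, a member of the carcinoembryonic antigen family 12614 bp downstream on the same strand, was also lower throughout, from 19.6 ± 1.4 CPM to 5.70 ± 0.88, 6.08 ± 1.7 and 3.80 ± 0.17 (combination: -2.36 ± 0.17, 4.3e-09).

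Among other members that fell, LINC00963 is abundant and went from 54.8, 62.4 and 49.7 CPM in DMSO to 39.3, 40.6 and 41.2 with gilteritinib, 33.2, 38.3 and 37.4 with MI-3454 and 36.3, 37.7 and 35.7 with the combination. Its log2 changes were -0.46 ± 0.11, -0.62 ± 0.13 and -0.60 ± 0.12 (SE, edgeR adjusted p = 0.016, 0.0053 and 0.00032), the first of which was lost without gilteritinib replicate 1 (0.073) or replicate 3 (0.060). LINC00996, near the immune GTPase gene GIMAP8, went from 2.28 ± 0.52 CPM in DMSO to 0.885 ± 0.35, 0.748 ± 0.25 and 0.947 ± 0.34, passing in all 3 comparisons (combination: -1.33 ± 0.37, 0.0054) but not once the library highest in RN7SL1 of each group was left out (0.085 for the combination, 0.063 for MI-3454 and 0.078 for gilteritinib). Its gilteritinib call also ended without DMSO replicate 1 (0.085), gilteritinib replicate 2 (0.068) or gilteritinib replicate 3 (0.11). Of the 144 counts of LINC00996, 73 lay outside DMSO, so its test values are descriptions. LINC00899 fell with MI-3454 from 17.2, 14.4 and 18.7 to 9.04, 9.47 and 7.61 CPM (-0.94 ± 0.17, 0.0020). LINC01569 stood at 5.47 ± 0.63 CPM in DMSO and 3.06 ± 1.1 with MI-3454 (-0.83 ± 0.27, 0.049), a call that ended in 10 of 14 alternatives. LINC00957 was lower with the combination at 1.13 ± 0.13 against 3.00 ± 0.94 CPM (-1.41 ± 0.35, 0.0023).

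LINC02256, LINC02982 and LINC02970 each fell in a comparison in which the nearest coding gene also fell. LINC02256, 5843 bp from GOLGA8N of the multicopy golgin family, was at 12.3 ± 2.5 CPM in DMSO and 7.70 ± 0.59 with the combination (log2 change -0.68 ± 0.18, SE, edgeR adjusted p = 0.0042), beside a change of -1.72 ± 0.11 (8.4e-10) in GOLGA8N. With gilteritinib GOLGA8N fell too (-0.48 ± 0.10, 0.0084) and LINC02256 stood higher at 16.9 ± 0.90 CPM (0.46 ± 0.16, 0.070, not passing). LINC02982 went from 5.08 ± 0.23 CPM in DMSO to 2.30 ± 0.47 with MI-3454 (-1.14 ± 0.24, 0.0057), and NKD2, an inhibitor of Wnt signalling, by -1.43 ± 0.19 (0.00024). LINC02970 held 11, 9.59 and 6.37 CPM in DMSO and 4.70, 3.49 and 3.13 with the combination (-1.23 ± 0.24, 0.00032), and the organic anion transporter gene SLCO4A1, 39330 bp away, was lower by -2.29 ± 0.18 (1.1e-08). With MI-3454 SLCO4A1 fell (-0.80 ± 0.18, 0.0084) and LINC02970 did not pass (-0.16 ± 0.24, 0.71). LINC01229, in the region of the transcription factor gene MAF, which was near 0 in every group, was lower with the combination at 0.522, 2.22 and 0.568 CPM against 4.64, 3.99 and 3.46 in DMSO (-1.85 ± 0.40, 0.00081). LINC02693, the other member listed as protein-coding, fell from 8.12 ± 0.13 CPM in DMSO to 3.32 ± 0.48 with gilteritinib (-1.29 ± 0.18, 0.00051) and 1.83 ± 0.49 with the combination (-2.10 ± 0.24, 1.1e-06).

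LINC01140 and LINC02801 were highest with gilteritinib. They lie one after the other on the plus strand of chromosome 1, at 87129765 to 87169198 and 87212669 to 87264741, before LMO4, a gene for a transcriptional cofactor. LINC01140 stood at 1.64, 1.33 and 1.62 CPM in DMSO, 7.78, 6.69 and 6.5 with gilteritinib, 2.12, 1.13 and 2.17 with MI-3454 and 3.39, 3.81 and 2.42 with the combination. LINC02801 stood at 0.819, 0.759 and 0.864 CPM in DMSO, 5.02, 3.65 and 4.63 with gilteritinib, 0.335, 0.618 and 0.109 with MI-3454 and 1.48, 1.91 and 1.99 with the combination. For both, the gilteritinib libraries were above all others. The log2 changes with gilteritinib were 2.19 ± 0.22 (SE, edgeR adjusted p = 3.2e-05) and 2.44 ± 0.28 (9.5e-05), and the combination was lower than gilteritinib by -1.09 ± 0.20 (0.00038) and -1.33 ± 0.25 (0.00038). Of the 216 counts of LINC02801, 84 lay outside gilteritinib, so its test values are descriptions and not support for a change.

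LINC00662 fell most with gilteritinib. Its levels were 79.9, 65.2 and 84.7 CPM in DMSO, 32.2, 32.1 and 31.3 with gilteritinib, 56.4, 69.7 and 47.1 with MI-3454 and 43.6, 49.3 and 53.7 with the combination. The gilteritinib libraries were the lowest of all, with a log2 change of -1.26 ± 0.12 (SE, edgeR adjusted p = 1.8e-05), against -0.65 ± 0.12 with the combination (0.00028) and -0.41 ± 0.16 with MI-3454 (0.097, not passing). The combination was above gilteritinib by 0.62 ± 0.09 (6.1e-05), and the interaction term was 1.02 ± 0.19 (0.0025). LINC02987, whose body overlaps the start of LINC00662 on the other strand, did not share this: it stood at 44.3 ± 2.6 CPM in DMSO and 39.9 ± 1.5 with gilteritinib (-0.15 ± 0.10, 0.35). LINC02940, in the region of the transcription factor gene ETS2, rose with gilteritinib from 1.64 ± 0.21 to 3.86 ± 0.77 CPM (1.20 ± 0.26, 0.0094) and stood at 1.21 ± 0.33 CPM with MI-3454 and 3.27 ± 0.56 CPM with the combination.

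Weaker gilteritinib calls were those of LINC00265, LINC02604, LINC00869 and LINC03072 among the higher and LINC01588 and LINC03073 among the lower. LINC00265 was at 5.86 ± 1.1 CPM in DMSO and 9.20 ± 0.56 with gilteritinib (log2 change 0.65 ± 0.18, SE, edgeR adjusted p = 0.028), and its call ended without DMSO replicate 1 or any 1 gilteritinib library (up to 0.12). With the combination it reached 14.2, 16.0 and 16.8 CPM (1.41 ± 0.18, 3.9e-06), a call that held in all alternatives. The other calls with gilteritinib each ended in 3 to 8 of the 14 alternatives.

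The interaction term was called for 30 members, 21 above 0 and 9 below (all tested genes: 6.55% and 8.74%). Without gilteritinib replicate 1 this total was 15, without gilteritinib replicate 2 it was 18, without MI-3454 replicate 3 it was 19, without combination replicate 2 it was 19 and without combination replicate 3 it was 17. The term's median was 0.41 over the members. Below 0 stood LINC01215, LINC03040, LINC02964 and LINC03068. LINC01215 held 0.364, 0.664 and 0.540 CPM in DMSO, 1.25, 1.46 and 0.881 with gilteritinib, 1.79, 1.85 and 1.09 with MI-3454 and 0.174, 0.423 and 0 with the combination, which had 6 counts. Both single-agent groups stood above DMSO without overlap and the combination overlapped it. The interaction was -3.99 ± 0.72 (SE, edgeR adjusted p = 0.0018), although LINC01215 barely passed the count minimum. Of its 101 counts, 57 lay outside MI-3454, so its test values are descriptions. LINC03068, an antisense entry, held 0.419 ± 0.13, 1.06 ± 0.46, 1.67 ± 0.52 and 0.730 ± 0.34 CPM in the same order (interaction -2.61 ± 0.67, 0.016), a call that ended without gilteritinib replicate 1 (0.062). As 64 of its 111 counts lay outside MI-3454, its test values are descriptions too.

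Above 0, LINC02762 held 0.720 ± 0.15 CPM in DMSO, 0.422 ± 0.30 with gilteritinib, 1.00 ± 0.24 with MI-3454 and 2.99 ± 0.82 with the combination (interaction 2.34 ± 0.63, SE, edgeR adjusted p = 0.020, lost without DMSO replicate 3 at 0.054 or gilteritinib replicate 1 at 0.061). Of its 145 counts, 62 lay outside the combination, so its test values are descriptions. LINC01176 held 1.99 ± 1.2, 1.13 ± 0.35, 1.90 ± 0.89 and 4.99 ± 1.4 CPM (interaction 2.14 ± 0.64, 0.035), and this call ended in 7 of 19 alternatives, each of them leaving out 1 library, with adjusted p up to 0.11. LINC00278, a member on chromosome Y, was counted with the others and is not described.

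**Figure D4:**
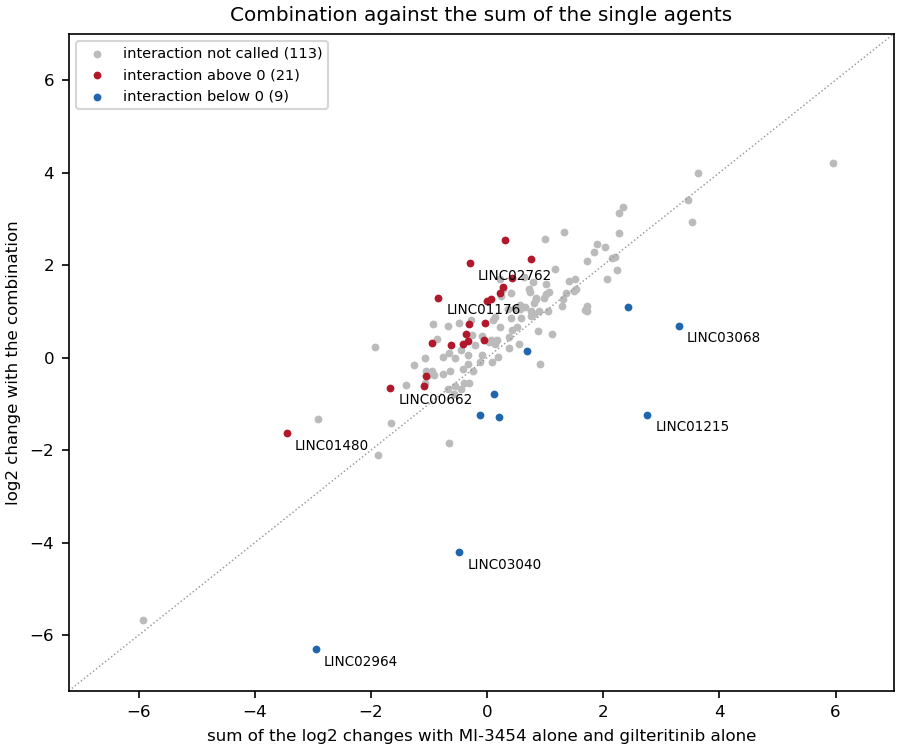
For 143 LINC genes, the sum of the edgeR log2 changes with MI-3454 alone and gilteritinib alone (x axis) against the log2 change with the combination (y axis), with the line of equality dotted. Red points had an interaction above 0 (21 genes) and blue points one below 0 (9 genes): LINC03040, LINC02964, LINC01215 and LINC03068 lie furthest below the line.

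For 109 members the nearest coding gene was also tested, 104 distinct genes in all. With the combination 70 of these members were called, and for 44 the neighbour was called too, in the same direction for 28 and in the opposite direction for 16. As 57.5% of all tested genes were called in this comparison, a called neighbour was common. With MI-3454 both were called in 11 of 27 pairs, 8 of them in the same direction, where 10.1% of all tested genes were called higher and 8.95% lower. With gilteritinib both were called in 3 of 15, all in the same direction, where 6.92% were higher and 8.18% lower. Across the 109 pairs Pearson's r between the log2 changes was 0.33 with the combination, 0.36 with MI-3454 and 0.11 with gilteritinib, as descriptions over genes that share libraries. The pairs called in opposite directions with the widest gap included LINC00926 with TCF12 and LINC01451 with EGFL7, described above, and LINC01624 with DLL1, a Notch ligand 2319 bp away, which is named here after its values were seen: LINC01624 went from 0.804 to 1.82 CPM (log2 change 1.12) while DLL1 went from 38.3 to 1.26 CPM (-4.96 ± 0.22).

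**Figure D5:**
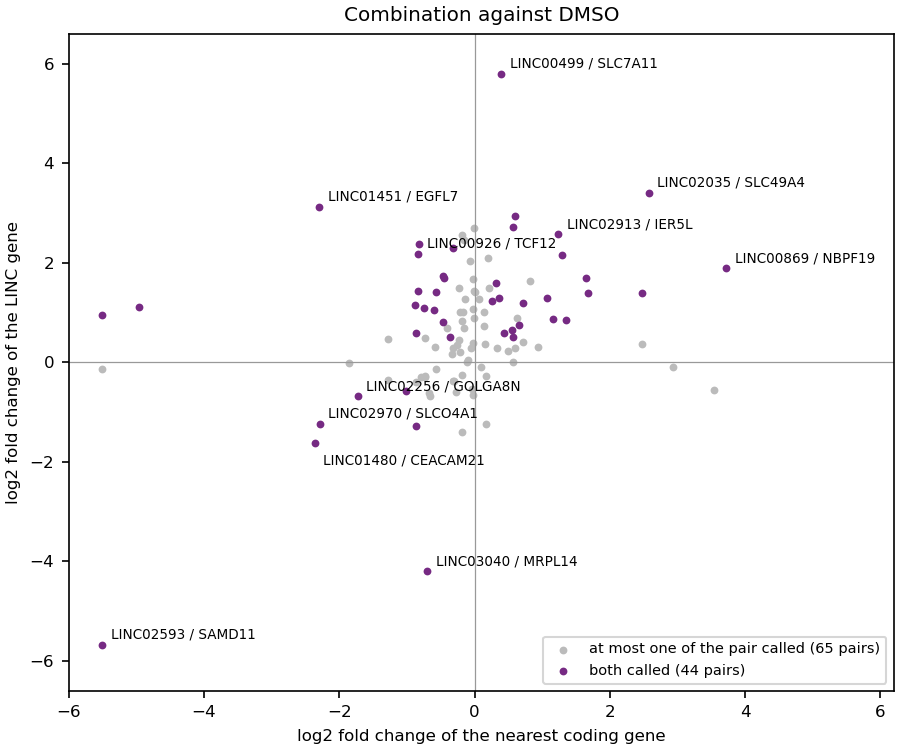
Log2 fold change of the combination against DMSO (edgeR) for 109 LINC genes (y axis) and their nearest coding genes (x axis). Purple points are the 44 pairs in which both were called: LINC02593 with SAMD11 lies at the lower left, LINC02035 with SLC49A4 at the upper right, and LINC00926 with TCF12 and LINC01451 with EGFL7 at the upper left.

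The calls were also counted by position relative to the neighbour. With the combination, 34 were higher and 9 lower of the 65 apart from the neighbour on the same strand, 23 and 6 of the 40 in divergent orientation, and 8 and 2 of the 18 in convergent orientation. Of 10 members whose start lies within 1000 bp of the neighbour's start on the opposite strand, 5 were higher and 0 lower. Of 28 single-exon members 13 were higher and 3 lower, and of 114 with several exons 64 and 14. Over all tested members 53.8% were higher and 12.6% lower, and over all tested genes 29.2% and 28.4%. These are counts, and no difference between the classes was tested.

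Promoter windows were held for 94 of the 144 members. The motifs searched on both strands were the E-box CACGTG, the ATF4 and C/EBP composite TGATGNAA, the C/EBP palindrome TTGCNNAA, the PU.1 core GAGGAAGT, the STAT site TTCNNNGAA, the MEIS core TGACAG and the GATA site AGATAA, all of them motifs of factors known in myeloid cells. The MEIS core was in 18 of 94 member windows (19.1%), against 15.9% of all 27305 windows of the same length. The C/EBP palindrome was in 12 (12.8% against 10.6%), the GATA site in 11 (11.7% against 10.5%) and the E-box in 5 (5.32% against 7.43%). The composite and the PU.1 core were in 4 each (4.26%, against 3.67% and 2.54%), and the STAT site in 5 (5.32% against 7.88%). Of the windows printed above, that of LINC00499 held none of these letters, that of LINC02035 held a GATA match and, on the other strand, a MEIS match, that of LINC02593 a MEIS match and that of LINC03040 a PU.1 match. A match in so short a window is a description and not a binding site.

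Long noncoding RNAs with names of their own were counted for comparison from a list of 54, of which 32 were tested. With the combination 8 were higher and 10 lower, with MI-3454 3 and 5, and with gilteritinib 2 and 7, against 29.2% and 28.4%, 10.1% and 8.95%, and 6.92% and 8.18% of all tested genes. MIR155HG, the host transcript of the microRNA miR-155, was lower in all 3, from 32.8 ± 2.65 CPM in DMSO to 6.77 ± 0.438 with gilteritinib, 8.86 ± 1.51 with MI-3454 and 3.54 ± 0.238 with the combination (log2 change -3.20 ± 0.16, SE, edgeR adjusted p = 4.9e-11). NEAT1, the scaffold of nuclear paraspeckles, was lowest with gilteritinib, at 348 ± 65.2 against 931 ± 192 CPM in DMSO (-1.42 ± 0.17, 0.00013). GAS5, a host of small nucleolar RNAs, fell from 474 ± 25.7 to 285 ± 7.88 CPM with the combination (-0.73 ± 0.10, 1.4e-05). FTX, a transcript of the X-inactivation centre, was among those higher with the combination (1.24 ± 0.16, 6.2e-06), as was KCNQ1OT1, an imprinted antisense RNA (0.92 ± 0.14, 3.5e-05).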

How the data were processed

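RNA-seq of MOLM-13 cells was available as 1 table of raw counts per gene for each of 12 libraries, as the authors deposited them. Per the submitters' processing notes, cutadapt 2.1, STAR 2.7.1a, HTSeq 0.11.2, DESeq2 and GRCh38 were used; the strand setting and annotation release are not stated there. The 5 summary lines of each table, which name no gene, stayed out of library sizes and tests. Reads assigned to no gene made up 15.6 to 36.5% of the reads assigned to a gene, to several or to none. The MI-3454 treatment label ends in a different number in some libraries, and the titles were followed.

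Symbols came from a gene name table (60340 of 60668 IDs), places and lengths from GENCODE 29 (58561 IDs). The members, gene lists and tests were chosen with earlier results of these data known. Each pair of groups was fitted with edgeR 4.0.16 (R 4.3.3) by the quasi-likelihood test with TMM scaling, over 13972 genes passing filterByExpr, and p-values were adjusted by Benjamini-Hochberg over all of them. The interaction came from a model of all 12 libraries. A log2 change is given with its SE, the change divided by the root of F. Named were the 8 members highest in CPM and the 8 highest per kb, up to 8 called members per direction against DMSO and up to 4 per direction otherwise. Those against DMSO needed a mean of 1 CPM or more in the higher group and no overlap. The others needed only the call.

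On simulated counts for combination against DMSO (13972 genes), 50 of 50 genes changed 4-fold and 30 of 50 changed 2-fold were recovered, with 7 false calls. The changed genes were drawn from all tested genes, whose median was 23.3 CPM against 2.9 CPM for the members. Far fewer genes were changed than the 57.5% called in the data. Recovery at the members' levels was therefore not measured. Deviations from the group means correlated weakly between same-numbered gilteritinib and DMSO libraries (r = 0.14, 0.39 and 0.11). Between differently numbered ones r ran from -0.30 to 0.21. Whether the numbers mark paired cultures therefore stays uncertain, and the blocked count is given beside the main one. In every other pair of groups a negative r occurred among the same-numbered libraries. Alternatives were DESeq2 1.42.0, other scalings and filters, the replicate block and leaving out libraries. Counting intervals are 95% and cover counting error only.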

Additional observations from a re-analysis of the deposited data

Results flagged for a closer look

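The interaction term was called in edgeR for 15 named members described here. It measures the departure of the combination's log2 change from the sum of the single-agent changes. Of all tested genes 6.55% were called above 0 and 8.74% below. LINC02762, LINC01480, LINC01215 and LINC03068 held under 100 counts outside their highest group, so their values are descriptions and not support for a difference. The interaction log2 was 2.34 for LINC02762, 2.14 for LINC01176, 1.83 for LINC01480, 1.02 for LINC00662, 0.77 for LINC02976, 0.65 for LINC00899, 0.47 for LINC00963 and 0.44 for LINC02987. It was -3.99 for LINC01215, -3.71 for LINC03040, -3.35 for LINC02964, -2.61 for LINC03068, -1.34 for LINC01140, -1.10 for LINC02970 and -0.55 for LINC00623. LINC01215 and LINC02964 had 6 and 3 counts with the combination. The calls of LINC01140, LINC01176, LINC02970, LINC00963, LINC00899 and LINC02987 each ended in 5 to 11 of the 19 alternatives.

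Signal also appeared outside the members. Reads assigned to no gene made up 32.6% with the combination against 18.1% in DMSO. The 381 olfactory receptor genes summed to 12.6 CPM with the combination against 2.28 CPM in DMSO. Groups of 3 libraries were too small for a check of single outlying libraries.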

How the results depend on the processing

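No called change of a named member turned direction in any alternative run. Of the members called, those called in every alternative were 20 of 37 with MI-3454, 9 of 21 with gilteritinib, 73 of 95 with the combination and 10 of 30 in the interaction. The count for gilteritinib was 36 with the replicate block. Leaving out 1 library gave 25 to 36 members called with MI-3454, 11 to 27 with gilteritinib, 79 to 92 with the combination, 35 to 59 for the combination against MI-3454, 80 to 88 against gilteritinib and 15 to 37 in the interaction. For gilteritinib these were 12 without DMSO replicate 1, and 12, 13 and 11 without gilteritinib replicates 1, 2 and 3. For the interaction they were 15 and 18 without gilteritinib replicates 1 and 2, 19 without MI-3454 replicate 3, and 19 and 17 without combination replicates 2 and 3. The causes were not tested. With the replicate block the other counts were 26, 95, 47, 91 and 24, in the order MI-3454, combination, combination against each agent and interaction.

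Scaling by total counts in place of TMM shifted the median of all genes by 0.10 for the combination against DMSO, and 79 members were then higher and 14 lower. Low counts limit the smallest members: 48 were under 2 CPM.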
